A study of Homo sapiens with 1 sample.

Results

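Among 10 mature miRNAs known from fibroblasts, smooth muscle and endothelium, 2 were detected in DLD-1 cells, beside 56.8% of all human miRNAs. These were miR-126-3p and miR-145-5p. The miRNAs were chosen by name, as the human miRNA spots of the array whose name was one of the 10, and all 10 were found among the 2549 human miRNAs measured. DLD-1 is a human colorectal carcinoma line grown without other cell types. The data came from 1 array of cells transfected with the negative control plasmid, named pLVX-NC. The array of cells overexpressing circLONP2 was not analysed here, so conditions could not be compared and no test was run.

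miRNAs are short RNAs that repress mRNAs, and they find these through the seed, bases 2 to 8 from the 5′ end. The hairpin precursor of a miRNA can yield a mature miRNA from either side, the 5p arm and the 3p arm. Smooth muscle is known for miR-143 and miR-145, which act on its contractile state, and endothelium for miR-126, which acts in the response to VEGF. The miR-199 and miR-214 miRNAs are known from fibroblasts and other mesenchymal cells.

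The mature sequences below, from RefSeq on GRCh38.p14, show which miRNAs the spots were made to measure. They are written 5′ to 3′ with the seed in capitals, and RefSeq sequences were matched for 9 of the 10 members.
hsa-miR-143-3p: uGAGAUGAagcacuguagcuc
hsa-miR-143-5p: gGUGCAGUgcugcaucucuggu
hsa-miR-145-5p: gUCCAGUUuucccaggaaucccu
hsa-miR-145-3p: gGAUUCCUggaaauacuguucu
hsa-miR-126-3p: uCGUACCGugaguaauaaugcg
hsa-miR-126-5p: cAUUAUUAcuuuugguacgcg
hsa-miR-199a-5p: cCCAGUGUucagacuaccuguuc
hsa-miR-214-3p: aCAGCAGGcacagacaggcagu
hsa-miR-214-5p: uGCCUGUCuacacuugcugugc
The 9 sequences shown have different seeds. The remaining member, miR-199b-5p, was not compared by sequence.

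The miRNA genes lie within the spans of a small number of other genes, all on GRCh38.p14. MIR143 (chr5:149428918-149429023, plus strand) and MIR145 (chr5:149430646-149430733, plus strand) are 1622 bases apart within the span of CARMN, a long non-coding RNA gene. MIR126 (chr9:136670602-136670686, plus strand) lies within EGFL7, a gene of endothelial cells. MIR214 (chr1:172138798-172138907, minus strand) and MIR199A2 (chr1:172144535-172144644, minus strand) are 5627 bases apart within the spans of both DNM3 and the long non-coding DNM3OS. miR-199a-5p also comes from MIR199A1 (chr19:10817426-10817496, minus strand) within DNM2, and MIR199B (chr9:128244721-128244830, minus strand) lies within DNM1. The annotation used here gives gene spans only, so exons and introns were not assigned. The strands of the surrounding genes were not compared with those of the miRNA genes, so a span does not show which transcript yields a miRNA.

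Each of the 10 members had 20 spots from 2 probes, and the authors' software had subtracted the local background, so a spot can read below 0. Of the 200 member spots, 11 were marked as outliers and left out. The SDs below are between spots of the array and describe variation within it, not between cultures. The SD of a miRNA pools the spots of its probes, so it also holds the difference between probes. Background was taken from 1000 negative control spots, and the background level was their 99th percentile, a brightness of 12.5. That level was set mainly by 1 of the 7 negative control probes, with a median of 8.62. The other 6 had medians between -3.18 and 2.27. Without this probe the level was 5.58, so both are given. Brightness of different miRNAs does not order the amounts of RNA. Where miRNAs are set beside each other below, only the brightness of their spots is compared.

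miR-126-3p, the 3p arm of the endothelial miR-126, was the member farthest above background. Its 19 spots ran from 49.6 to 73.3 with a median of 58.3, and the mean was 58.9 ± 5.64 (SD, 19 spots). All 19 spots were well above background by the software's flag, which on this array was carried by spots of 18.8 or brighter. The mean was 4.71-fold over the background level, and 10.5-fold with the brightest control probe left out. Its probes had means of 56.4 and 61.1, a difference of 4.68 with a standard error of 2.36. Every spot lay above the highest negative control spot, 27.9.

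miR-145-5p, the arm of miR-145 associated with smooth muscle, was the other member detected. Its 18 spots ran from 22.1 to 43.6 with a median of 37.8, and the mean was 37.0 ± 5.48 (SD, 18 spots). All 18 spots were well above background. The mean was 2.96-fold over the background level, and 6.62-fold without the brightest control probe. Its probes had means of 40.2 and 34.4, a difference of 5.74 with a standard error of 2.07, and its dimmest spot lay below the highest negative control spot. The 2 members had all their spots well above background, as did 65.6% of the 1448 detected human miRNAs.

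**Figure D1:**
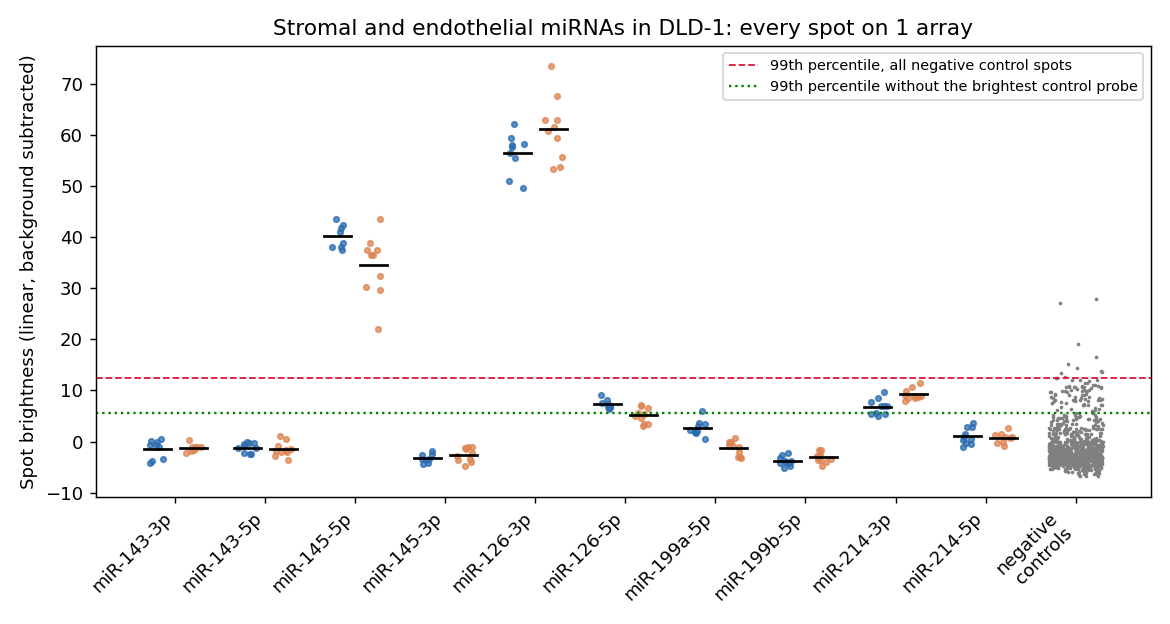
Background-subtracted brightness (linear) of every spot used for the 10 miRNAs on 1 array, with the 1000 negative control spots at the right; blue and orange are the probes of a miRNA and black bars their means. The spots of miR-126-3p and miR-145-5p lie above both background levels (12.5, dashed, and 5.58, dotted), and no spot of the other 8 lies above 12.5.

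The other 8 members had no spot well above background among the spots used. They fell into a pair within the range of the brightest negative control probe and 6 with means below 1. miR-214-3p, the mesenchymal arm of MIR214, had 20 spots from 4.92 to 11.4 with a median of 8.46 and a mean of 8.02 ± 1.81 (SD, 20 spots). miR-126-5p, the partner arm of miR-126-3p, had 18 spots from 3.00 to 9.13 with a median of 6.68 and a mean of 6.11 ± 1.68 (SD, 18 spots). The probe means were 6.78 and 9.26 for miR-214-3p, a difference of 2.48 with a standard error of 0.592. They were 7.35 and 5.12 for miR-126-5p, a difference of 2.22 with a standard error of 0.571. By their means, both lay above the 6 dimmer members. Both also lay within the range of the brightest negative control probe, -1.38 to 27.9, as did some of the dimmer members. That control probe had a mean of 8.55 ± 4.48 (SD, 100 spots).

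How these miRNAs stand depends on that control probe. With all negative controls the mean of miR-214-3p was 0.642-fold and that of miR-126-5p 0.489-fold of the background level. Without the brightest control probe the values were 1.44-fold and 1.09-fold. The software's looser flag, positive and significant over background, was carried by 20 of 20 spots of miR-214-3p and 15 of 18 of miR-126-5p, but also by 88 of 100 spots of that negative control probe. Among the human miRNAs not detected, 308 of 1101 (28.0%) had a probe with 0.5 or more of its spots flagged in this way, and 2 of the 8 members not detected did. A low level of miRNA and background signal cannot be told apart for this pair.

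Probe means differed by more than 2 standard errors for 4 of the 10 members, namely miR-145-5p, miR-126-5p, miR-214-3p and miR-199a-5p. The same count was not made over all human miRNAs, so it is not read as particular to these members. The 20 spots of miR-199a-5p ran from -3.20 to 5.89 with a median of 0.673, 1 of them positive and significant. The probe means were 2.59 ± 1.48 and -1.32 ± 1.41 (SD, 10 spots each), a difference of 3.91 with a standard error of 0.646. Neither reached the lower background level of 5.58. miR-214-5p had a mean of 0.895 ± 1.32 (SD, 19 spots) and its highest spot was 3.61.

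The 4 remaining members had means below 0. miR-143-3p, the arm of miR-143 associated with smooth muscle, had 17 spots from -4.17 to 0.569 with a mean of -1.33 ± 1.40. A further spot of miR-143-3p, at 19.7, was well above background, but it was marked as an outlier and left out. miR-143-5p had a mean of -1.31 ± 1.18 (SD, 20 spots) and a highest spot of 1.16. miR-145-3p had a mean of -2.86 ± 1.18 (SD, 18 spots) and a highest spot of -1.08. miR-199b-5p was the dimmest member, with spots from -5.15 to -1.56 and a mean of -3.43 ± 1.01 (SD, 20 spots). Of the 1101 human miRNAs not detected, 55.9% also had a mean below 0.

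**Figure D2:**
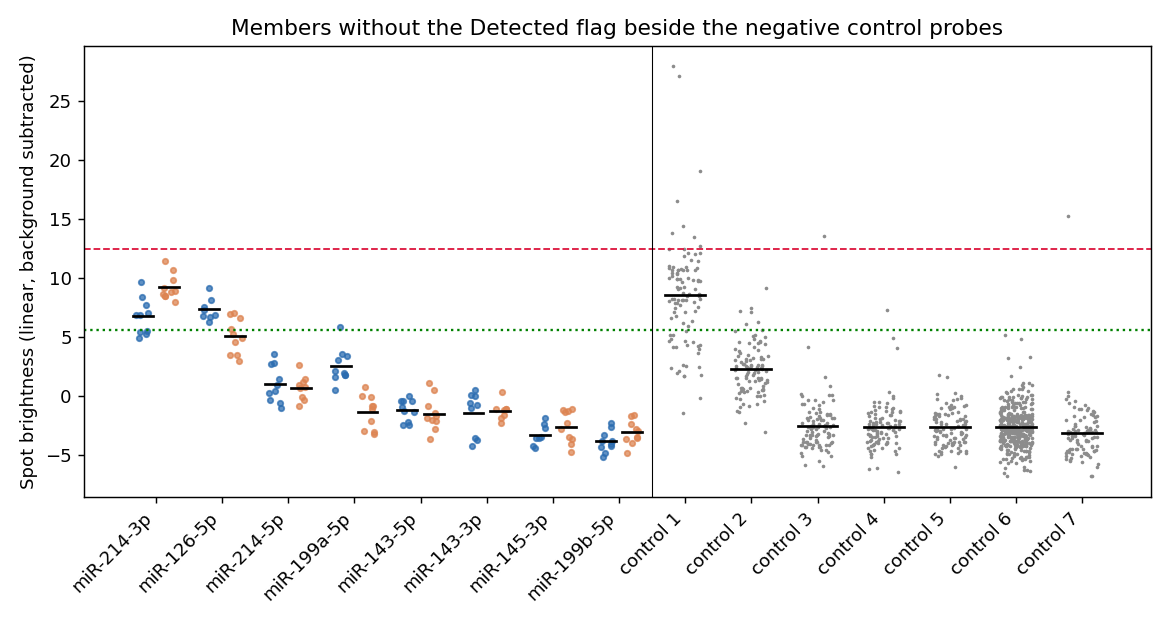
Background-subtracted brightness (linear) of every spot used for the 8 miRNAs not detected, in order of their mean, beside the 7 negative control probes in order of their median; blue and orange are the probes of a miRNA, black bars are means, and lines mark 12.5 (dashed) and 5.58 (dotted). miR-214-3p and miR-126-5p overlap the brightest control probe, and miR-145-3p and miR-199b-5p lie among the dimmest controls.

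The count of 2 detected members of 10 stood beside 56.8% of all human miRNAs with the same flag. For the same 2 members a probe exceeded the background level of 12.5, against 55.9% of human miRNAs. Without the brightest control probe, 4 of 10 members had a probe above the level, with miR-214-3p and miR-126-5p added, against 64.7%. A probe well above background on 0.5 or more of its spots was found for 2 members, against 49.9%, and a probe with every spot so for 2 members, against 45.8%. A probe with 0.5 or more of its spots positive and significant was found for 4 members, against 68.9%. The median distance of the 10 members from the background level was -3.64 on the log2 scale, against 0.21 over all human miRNAs. The -3.64 is a bound, since brightness below 1 was set to 1 and 6 of the 10 members were at that limit.

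**Figure D3:**
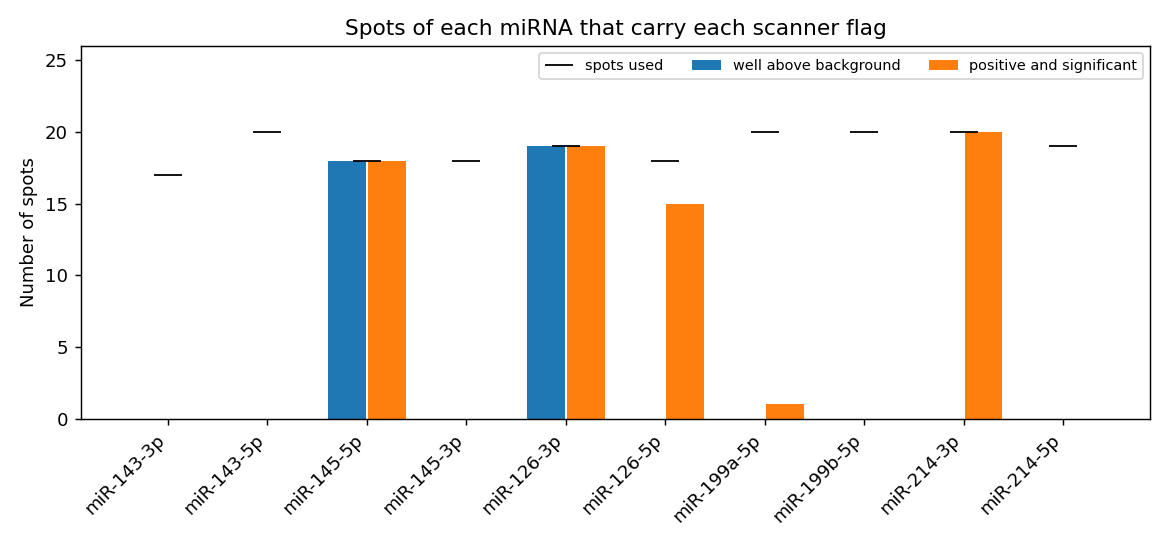
Number of spots of each miRNA that carry the well-above-background flag (blue) and the positive-and-significant flag (orange), with a black dash at the number of spots used. miR-145-5p and miR-126-3p carry both flags on all spots, while miR-214-3p and miR-126-5p carry only the looser flag, on 20 and 15 spots.

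Arms of the same hairpin did not appear together. For miR-126 the 3p arm was detected and the 5p arm was not, and for miR-145 the 5p arm was detected and the 3p arm was not. For miR-143 and miR-214 neither arm was detected. Of the 4 pairs of arms among the members, 2 thus had 1 arm detected, 2 had neither and 0 had both. Over the 810 pairs of arms on the array, both were detected for 31.5%, 1 for 46.4% and neither for 22.1%. Within CARMN, miR-145-5p was detected whereas miR-143-3p, from the neighbouring hairpin, was not.

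The deposited normalized values restate the Detected flag for these members and are no separate evidence of it. They were 4.002 for miR-126-3p and 3.43 for miR-145-5p on the log2 scale. The other 8 members all held 2.32, the lowest value in the table, which is 5.00 on the linear scale and was given to each of the 1101 human miRNAs not detected. The 8 values therefore have no order. The software's total signal of a miRNA, which is not on the scale of spot brightness, was 21.6 for miR-126-3p and 13.7 for miR-145-5p. It was 0.1 for each of the others.

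Parts of the member sequences recur in other miRNAs on the array. Seeds were compared over 2248 of the 2549 human miRNAs on the array, those with a RefSeq sequence, and miR-199b-5p was not among them. In this search miR-143-3p and miR-214-3p each shared their seed with 2 other miRNAs. miR-6088 and miR-4770, which share the miR-143-3p seed, were both detected. All 19 spots of miR-6088 and 0 of 19 spots of miR-4770 were well above background. miR-761 and miR-3619-5p, which share the miR-214-3p seed, were also detected, with 0 of 20 and 20 of 20 spots well above background. miR-761 had a mean of 9.66, close to the 8.02 of miR-214-3p, yet carried the Detected flag. Of the detected human miRNAs, 6.28% had no spot well above background.

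The longest run of bases shared with another miRNA was 15 for miR-145-5p, with miR-4328, which was not detected. Against detected miRNAs the longest run shared with miR-145-5p was 8 bases, with miR-4746-5p. For miR-126-3p it was 7 bases, and its nearest detected miRNAs were miR-6818-5p and miR-6869-5p. For miR-214-3p it was 14 bases, with miR-4269. These runs were searched in the same 2248 miRNAs. Cross-hybridization was not tested.

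A further stromal list held miR-199a-3p, miR-195-5p, miR-218-5p, miR-490-3p and miR-497-5p. Of these 5, 1 was detected, namely miR-490-3p, beside 56.8% of all human miRNAs. Without the brightest control probe, 4 of the 5 had a probe above the background level, against 64.7%. miR-199a-3p, the partner arm of miR-199a-5p, has the same mature sequence from MIR199A1, MIR199A2 and MIR199B.
hsa-miR-199a-3p: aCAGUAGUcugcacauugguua
Its 20 spots ran from 2.39 to 10.2 with a median of 6.30 and a mean of 6.48 ± 2.24 (SD, 20 spots). None was well above background and 17 were positive and significant, which places it beside miR-214-3p and miR-126-5p, within the range of the brightest negative control probe.

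Of 10 epithelial miRNAs, 8 were detected, beside 56.8% of all human miRNAs. The median distance of this list from background was 1.39 on the log2 scale, against 0.21 over all human miRNAs. It held the miR-200 family, which keeps epithelial cells in that state, and miR-192, miR-194, miR-215 and miR-375 of intestinal epithelium, and miR-203a of squamous and other epithelia. miR-141-3p had the highest mean of the list, 3024 ± 401.1 (SD, 20 spots), with probe means of 3410 and 2637. The other detected miRNAs of the list had means from 14.9 (miR-203a-3p) to 85.3 (miR-200c-3p). That range also held the means of miR-145-5p and miR-126-3p. miR-192-5p and miR-194-5p were not detected, with means of 5.46 ± 2.56 and 0.209 ± 1.90 (SD, 20 spots each). Of the miRNAs of blood cells 5 of 9 were detected, and of those of muscle, brain and liver 3 of 9, beside the same 56.8%. The 5 of 9 is 55.6%, close to the share over all human miRNAs. With 1 array no difference between the lists was tested.

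**Figure D4:**
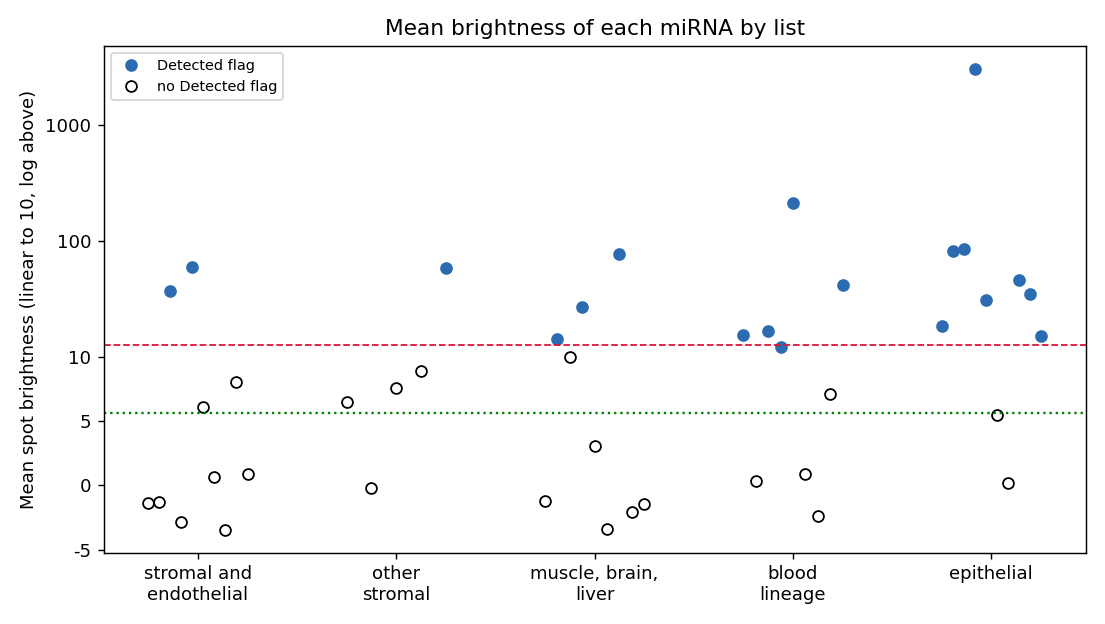
Mean background-subtracted brightness of each miRNA (linear up to 10, log above) in the 10 stromal and endothelial miRNAs and the comparison lists; filled points carry the Detected flag, and lines mark 12.5 (dashed) and 5.58 (dotted). Filled points number 2 of 10 for the stromal and endothelial miRNAs. They number 1 of 5, 3 of 9 and 5 of 9 for the next lists, and 8 of 10 for the epithelial list. Over all human miRNAs the share is 56.8%.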

How the data were processed

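The authors read a Cy3 scan of 1 array with Agilent Feature Extraction 11.0.1.1 and deposited linear spot intensity with the local background subtracted, and flags of 0 or 1 set by the software. The authors also deposited log2 values of this array (median 2.33 over the table), made by quantile normalization with GeneSpring GX. Which arrays entered that step, and how values were centred, is not given in the sources used here. The labels describe dye ligated to miRNA, and the methods describe labelled cDNA. Spots marked as outliers were left out, which were 4.06% of human miRNA spots. Mean brightness was taken over the remaining spots of a miRNA. For the log2 scale, brightness below 1 was set to 1. Scaled signals were log2 values minus the 75th percentile over detected probes, a brightness of 248.8. The normexp correction of limma 3.58.1 (R 4.3.3), with an offset of 50, used median spot signals. Python 3.11.15, numpy 2.4.6 and pandas 2.3.3 were used, and the summaries were checked on simulated data. The members, lists and alternatives were chosen with earlier results of these data known. All 10 members are named. For the comparison lists, values were meant for the brightest detected and the dimmest miRNA at most, and for miR-199a-3p, which completes the miR-199 arms. Not every such value is printed. Those of miR-192-5p, miR-203a-3p, miR-200c-3p, miR-490-3p and miR-150-5p were added after they were seen. miRNAs that share a seed or a run of bases were also named after their values were seen. The number of arrays, 1, limits the precision.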

Additional observations from a re-analysis of the deposited data

How the results depend on the processing

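The count of 2 detected members was 2 when 0.5 or more, or all, of the spots of a probe had to be well above background, and 4 when 0.5 or more had to be positive and significant. The count of 2 members above the background level was 4 without the brightest negative control probe, where the distances of miR-126-5p and miR-214-3p turned positive (0.13 and 0.52 on the log2 scale), and 3 with the 95th percentile. It was 2 under the 4 other settings. miR-126-3p and miR-145-5p were above the level in all 7 settings of the mean brightness. The median distance of -3.64 was -3.13 with the 95th percentile, -2.48 without the brightest control probe, -4.00 against the lowest probe well above background, -0.25 after normexp and -2.93 for the brightest probe. Its value rests on the lower limit of 1. The median scaled signal of -7.45 was -5.66 over all probes, -7.08 for the brightest probe, -2.35 after normexp and -9.57 from the total signal. Of the lists, the muscle, brain and liver count of 3 was 1 with every spot well above background, and the other stromal count of 1 was 4 with spots positive and significant. The offset of 50 narrows ratios by construction, and otherwise the cause was not tested. No paired analysis was possible because the data analysed hold 1 array.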

Other observations

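Among the miRNAs set beside the members, probes of the same miRNA disagreed widely for miR-490-3p and miR-150-5p, which were chosen once their values had been examined. miR-490-3p, the stromal miRNA detected outside the members, had probe means of 92.3 and 23.1. miR-150-5p, a lymphocyte miRNA, carried the Detected flag with means of -2.62, -1.48 and 51.9 for its 3 probes.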
